A study of Mus musculus with 6 samples.

Results

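Protein phosphatase 2A (PP2A) was examined through the mouse genes of its catalytic subunits (Ppp2ca and Ppp2cb), its scaffold subunits (Ppp2r1a and Ppp2r1b) and its B56 regulatory subunits (Ppp2r5a, Ppp2r5b, Ppp2r5c, Ppp2r5d and Ppp2r5e). The genes were chosen by name as subunits of the enzyme. They are 9 of the 21883 protein-coding genes of the gene table used. All called peaks overlapping a gene or the 10 kb on each side were taken, which gave 221 of the 194026 peaks in the 6 lists.

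The study mapped H3K27ac, an acetyl group on a lysine of histone H3 that marks promoters and enhancers in use, in primary hematopoietic stem cells isolated from mouse bone marrow. The method was CUT&RUN, in which an antibody brings a nuclease to the mark and the fragments it releases are sequenced. There were 3 libraries from wild-type mice and 3 from Ppp2ca-deficient mice, called knockout here as in the sample titles. The comparison asks where the mark differs when the main catalytic gene of PP2A is lost. The mice's strain and age, the driver of the deletion and the part of Ppp2ca it removed were not given in the sources used here. Libraries were treated as coming from 1 mouse each; the labels carry no animal numbers, so p-values measure only the spread between these libraries.

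PP2A is a serine/threonine phosphatase of nearly all cells. A catalytic subunit sits on a horseshoe-shaped scaffold, and a regulatory subunit completes the enzyme and decides which substrates it meets. B56 subunits recruit substrates through a short peptide motif and act on AKT and MYC signalling, on p53 and on chromosome cohesion and attachment in mitosis. In blood, PP2A opposes growth signals downstream of cytokine receptors and oncogenic kinases.

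The lists differed in length and in the strength of their peaks, and this touches every comparison that follows. Wild-type lists held 21917 to 29945 peaks and knockout lists 34016 to 50453. Peaks at or under a q-value of 0.05 (the authors' p-value corrected for multiple testing) made up 15.7 to 16.7% of the wild-type lists and 43.9 to 66.6% of the knockout lists. Read totals are not in the lists. The commonest genome background solved from the peaks, a stand-in for depth, lay between 0.498 and 0.584 fragments per caller window in the wild-type libraries, and knockout replicates 1 to 3 had 0.738, 0.465 and 0.827. Knockout replicate 2 had the lowest background of all 6 libraries, and its list held 34016 peaks. The part of depth in the lengths of the lists was not tested. A gene counts as marked in a library with a peak within 1000 bp of one of its ends, and 27.5 ± 2.02% of all genes were marked in wild type against 42.0 ± 2.36% in knockout (SD, n = 3 each). Of 12 stem and progenitor genes, 4.67 ± 0.577 were marked in wild type and 4.67 ± 1.15 in knockout. Runx1, Tal1 and Lyl1 were marked in all 6 libraries, whereas Gata2, Erg, Hlf and Mecom were among those marked in none. Marked genes numbered 1 to 4 of 8 in wild type and 3 to 5 in knockout for granulocytes and macrophages, and 0 to 2 of 5 in both genotypes for B cells. They numbered 2 of 5 in wild type and 1 to 2 in knockout for T and NK cells, and 1 to 2 of 5 and 3 of 5 for erythroid cells. Of the 7 genes listed as non-blood, Pecam1 was marked in every library and the other 6 in none. Of the erythroid genes, Epb42, of the red cell membrane, was marked in the 3 knockout libraries alone (4.10% of all genes). Its peaks lay at percentiles of 56.6, 63.0 and 41.8 in the knockout lists, where 0 is the strongest peak. They passed a q-value of 0.05 in 1 library. Another erythroid gene was marked in 1 wild-type library and in no knockout library, and another in none. The part of these other cells in the results was not tested.

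Sequences of 250 bases just before a gene start are shown for the members whose start peaks carry the results below, because the peaks differ in how far they reach into this window. They come from RefSeq (GRCm38.p6), which had entries for 7 of the 9 genes and gives the strand. Each is written 5′ to 3′ on the strand of the gene. Capitals mark matches, on either strand, to the cyclic AMP response element written TGACGTCA, the Sp1-type box written GGGCGG, the box of the NF-Y factor written CCAAT, the ETS family motif written CCGGAAGT, the TATA box written TATAAA, and the consensus motifs of NRF1 and YY1. The windows are chr11:52098574-52098823 on the plus strand for Ppp2ca, chr17:20945204-20945453 on the plus strand for Ppp2r1a, chr12:110485547-110485796 on the plus strand for a start inside Ppp2r5c, and chr17:46705027-46705276 on the minus strand for Ppp2r5d.
Ppp2ca: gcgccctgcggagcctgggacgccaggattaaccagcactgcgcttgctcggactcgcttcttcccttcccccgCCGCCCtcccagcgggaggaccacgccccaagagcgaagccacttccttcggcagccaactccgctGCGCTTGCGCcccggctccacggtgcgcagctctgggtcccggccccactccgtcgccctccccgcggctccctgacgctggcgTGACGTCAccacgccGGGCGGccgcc
Ppp2r1a: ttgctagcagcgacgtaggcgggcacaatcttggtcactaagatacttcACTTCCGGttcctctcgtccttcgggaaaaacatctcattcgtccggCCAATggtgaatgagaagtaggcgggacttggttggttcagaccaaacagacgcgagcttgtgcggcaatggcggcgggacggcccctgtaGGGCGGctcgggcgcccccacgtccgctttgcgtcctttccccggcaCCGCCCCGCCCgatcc
Ppp2r5c internal start: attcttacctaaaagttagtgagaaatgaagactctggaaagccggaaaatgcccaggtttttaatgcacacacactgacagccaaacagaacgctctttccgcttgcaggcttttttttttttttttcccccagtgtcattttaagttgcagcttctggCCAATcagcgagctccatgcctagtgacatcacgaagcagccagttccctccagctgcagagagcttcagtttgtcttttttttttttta
Ppp2r5d: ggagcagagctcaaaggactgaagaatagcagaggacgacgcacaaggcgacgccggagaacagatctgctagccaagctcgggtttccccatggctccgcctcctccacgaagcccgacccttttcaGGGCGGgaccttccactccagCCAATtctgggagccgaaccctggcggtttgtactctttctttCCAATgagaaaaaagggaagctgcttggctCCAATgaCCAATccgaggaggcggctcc
The Ppp2ca window holds 1 TGACGTCA, from base 26 to base 19 before the start, with 2 copies of GGGCGG and 1 NRF1 motif. TGACGTCA occurs in 1.62% of all 27025 promoter windows, GGGCGG in 32.9% and the NRF1 motif in 3.86%. The Ppp2r1a window holds 3 copies of GGGCGG, of which a pair shares 1 base, with 1 CCAAT and 1 ETS motif. CCAAT occurs in 34.5% of windows and CCGGAAGT in 2.93%. The Ppp2r5d window holds 4 copies of CCAAT, and 0.918% of all windows hold at least as many. The internal Ppp2r5c start has 1 CCAAT and none of the other motifs, and TATAAA (13.0% of all windows) and the YY1 motif (0.218%) are in none of these 4 windows. The Ppp2ca window is 73.6% G and C with 30 CpG, and the internal Ppp2r5c window is 43.2% with 5 CpG, beside medians of 52% and 6 over all windows.

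Across the 9 genes, the mark was called at more places and over more bases in the knockout libraries, before any scaling for the bases called in a library. Peaks over the 9 spans numbered 28, 28 and 24 in wild type (replicates 1, 2 and 3, the order kept throughout) and 49, 44 and 48 in knockout. The gain lay mostly outside the gene ends. Peaks at gene ends numbered 8.67 ± 0.577 in wild type and 10.3 ± 0.577 in knockout, peaks in gene bodies 10 ± 2 and 22.3 ± 1.15, and peaks in the flanks 8 ± 1 and 14.3 ± 1.15 (SD, n = 3 each). Members with a gene-end peak numbered 5, 7 and 7 in wild type and 9, 7 and 8 in knockout, so these counts overlapped. Restricted to q-values of 0.05 or less, the counts were 3, 5 and 5 against 9, 7 and 8 and did not overlap. The same limit left 10.7 ± 1.42% of all genes marked in wild type and 36.5 ± 3.76% in knockout.

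**Figure D1:**
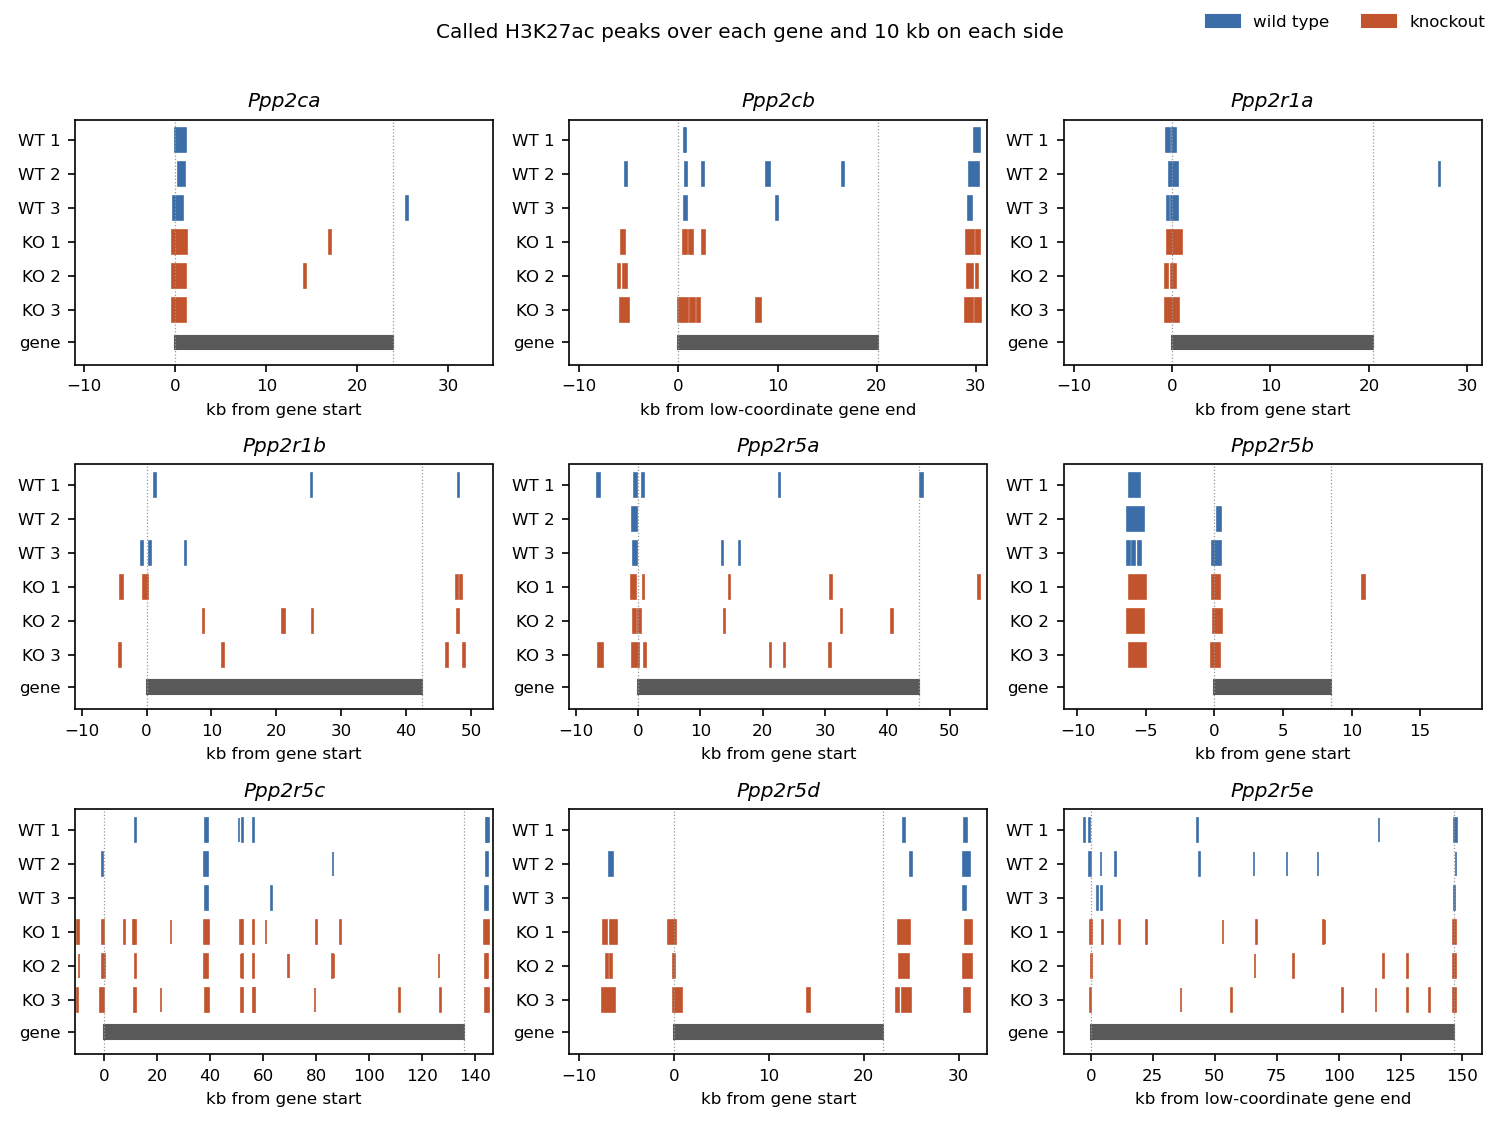
Called peaks (bars) by library over each gene and 10 kb on each side, in kb from the gene start or, for Ppp2cb and Ppp2r5e, whose strand was not in the promoter table, from the low-coordinate end. Ppp2ca and Ppp2r1a have the start as the 1 region called in all 6 libraries, whereas Ppp2r5c and Ppp2r5d have several regions called more often or more widely in the knockout libraries.

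Merged over libraries, the peaks of the 9 spans formed 106 regions, 14 at gene ends, 71 in gene bodies and 21 in flanks. A peak in 1 library only accounted for 74 of them (69.8%, beside 73.5% of all merged regions of the genome), and 9 had a peak in all 6 libraries (5.27% of all regions). Ppp2r5e had the most regions, 28, of which 24 were seen once, and Ppp2r1a had the fewest, 2. Regions seen once made up 85.7% of those of Ppp2r5e, 66.7% for Ppp2r5c, the next longest gene, and 78.6% for the shorter Ppp2r1b. Just 1 region, at the start of Ppp2r5d, was present in every knockout list and absent from every wild-type list (2.70% of all regions), and 0 showed the reverse (0.0316%).

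Gene ends were marked in all 6 libraries for 4 members, Ppp2ca, Ppp2r1a, Ppp2r5a and Ppp2r5e, beside 17.0% of all genes. All 3 knockout libraries marked 7 members (36.2% of all genes), the exceptions being Ppp2cb and Ppp2r1b, and all 3 wild-type libraries marked 5 (17.2%). With q-values of 0.05 or less, the same 7 members were marked in all 3 knockout libraries (29.4% of all genes), and Ppp2ca, Ppp2r1a and Ppp2r5a in all 3 wild-type libraries (4.40%).

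The bases covered by called peaks within 1000 bp of the gene ends were compared for every gene by an exact permutation test, two-sided, that runs through the 20 ways of assigning the 6 libraries to genotypes. It cannot give a p below 0.1, and 0 of 21883 genes had an unadjusted p under 0.05 or an adjusted one. The comparison is therefore given as whether every knockout library lay above every wild-type library. This held for 4 of the 9 members, Ppp2ca, Ppp2r5c, Ppp2r5d and Ppp2r5e, beside 25.6% of all genes. No member had every knockout library below (0.0183% of all genes). Among genes marked in all 6 libraries it held for 2 of 4 members, Ppp2ca and Ppp2r5e, beside 66.5% of such genes. The median difference over the 9 members was 403 bp, beside 0 over all genes. Of all genes, 10799 were marked in no library and so had a difference of 0, whereas every member was marked in some library. The median ratio of the 4 members marked in all 6 libraries was 1.45, beside 1.90 over all 3712 such genes. Divided by all bases called in a library (per 10 Mb called), the difference turned negative for 6 members, among them Ppp2ca (-498 bp) and Ppp2r5e (-69.2 bp). It was positive only for Ppp2r5c (323 bp, exact permutation p = 0.3, with overlap between the groups) and Ppp2r5d (368 bp, exact permutation p = 0.1). Ppp2r1b was negative on both scales (-11 and -231 bp).

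**Figure D2:**
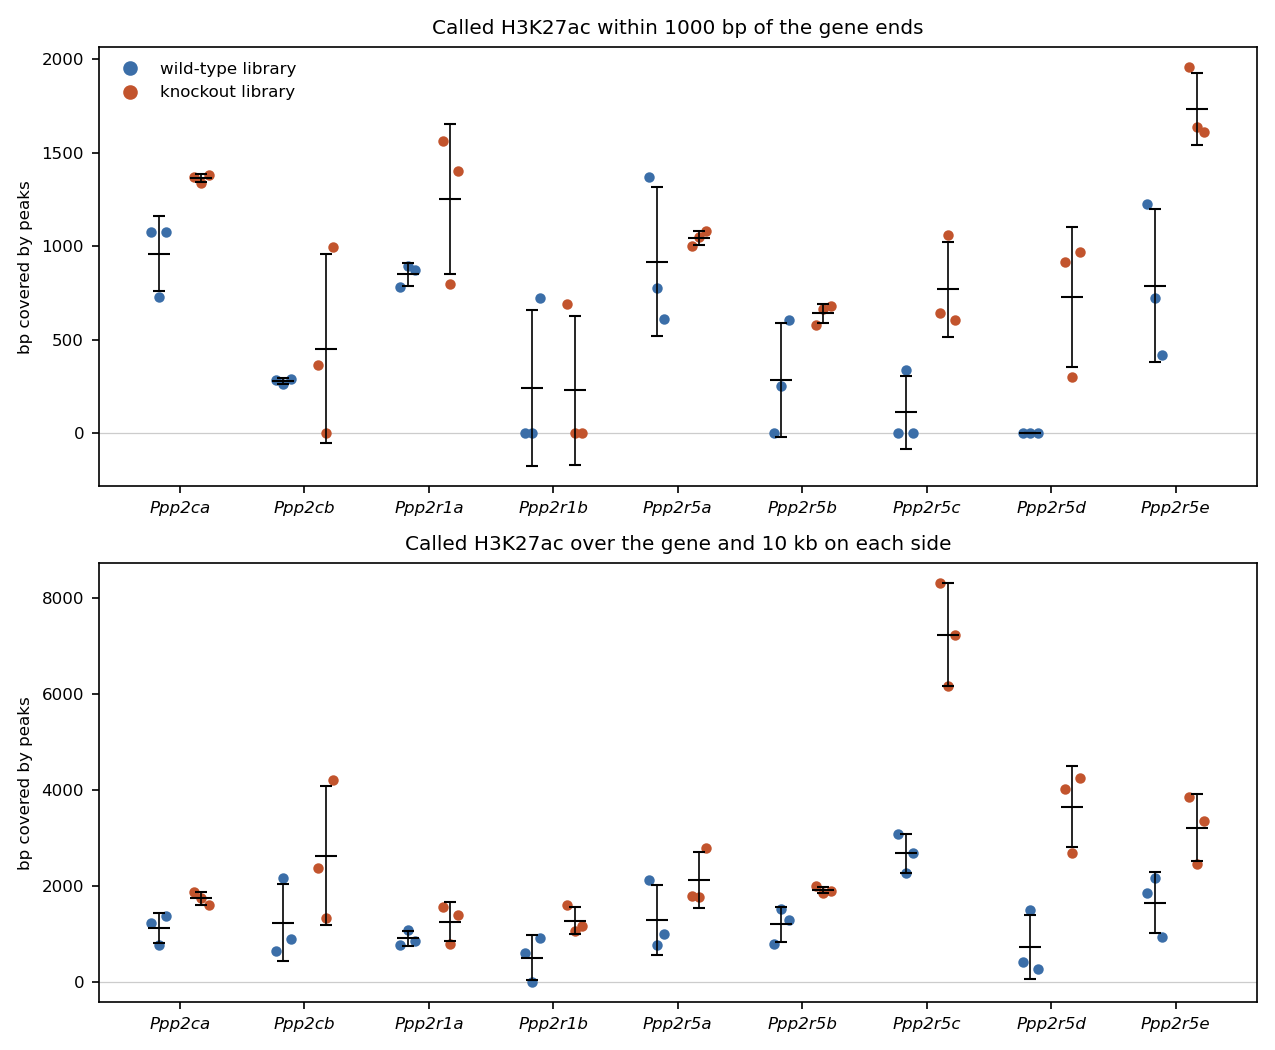
Bases covered by called peaks (bp) near the gene ends and over each span, with 1 point per library, the mean as a line and the SD as bars (n = 3). Ppp2ca, Ppp2r5c, Ppp2r5d and Ppp2r5e have every knockout library above every wild-type library near the gene ends. Per 10 Mb called, the gene-end difference of Ppp2ca and Ppp2r5e turns negative and the Ppp2r5c groups overlap.

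Ppp2ca encodes the alpha catalytic subunit, the isoform that was deficient in the knockout mice (chr11:52098824-52122749, plus strand). Most of its called bases lay in 1 peak over the gene start, 1232, 786 and 1077 bp wide in wild type and 1681, 1566 and 1606 bp wide in knockout. Gene-end bases were 1076, 729 and 1077 against 1371, 1338 and 1381, with means of 961 ± 201 and 1363 ± 22.5 bp and a ratio of 1.42 (exact permutation p = 0.1, adjusted p = 0.390). Every knockout peak was wider than every wild-type peak, though per 10 Mb called the gene-end difference was -498 bp, and the knockout libraries lay closer together. A peak at the start does not check the deletion, since the deleted part is not known here.

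The Ppp2ca peak reached further upstream in the knockout lists. Its upstream edge lay 75 bp before, 272 bp after and 207 bp before the start in wild type, and 370, 337 and 380 bp before it in knockout. The printed window was covered over 75, 0 and 207 of its 250 bases in wild type and over all 250 in each knockout library, so the TGACGTCA lay inside every knockout peak and inside the peaks of wild-type replicates 1 and 3. Summits stood 415, 450 and 448 bp after the start in wild type and 824, 826 and 457 bp after it in knockout.

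The summit fold of the Ppp2ca peak, the authors' ratio to the local background, was 6.20, 4.08 and 5.30 in wild type and 6.02, 5.83 and 6.66 in knockout, and these values overlapped. The fragments at the summit, solved from the fold and p-value, were 16, 11 and 13 against 42, 27 and 48. The local background was 1.74, 1.94 and 1.64 against 6.14, 3.80 and 6.36 fragments, so both terms of the fold were larger in knockout. Over each library's commonest background, the summit stood at 32.1, 18.8 and 26.1 in wild type and 56.9, 58.1 and 58.0 in knockout, a ratio of 2.25. Every knockout library lay above, as at 93.9% of the genes marked in all 6 libraries, whose median ratio was 2.11; the knockout libraries lay below at 0.0539% (for Ppp2ca exact permutation p = 0.1, adjusted p = 0.106). The other members marked in all 6 libraries lay above in the same way, with ratios of 1.78 for Ppp2r1a, 1.98 for Ppp2r5a and 2.59 for Ppp2r5e. This measure was added after the data had been seen.

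**Figure D3:**
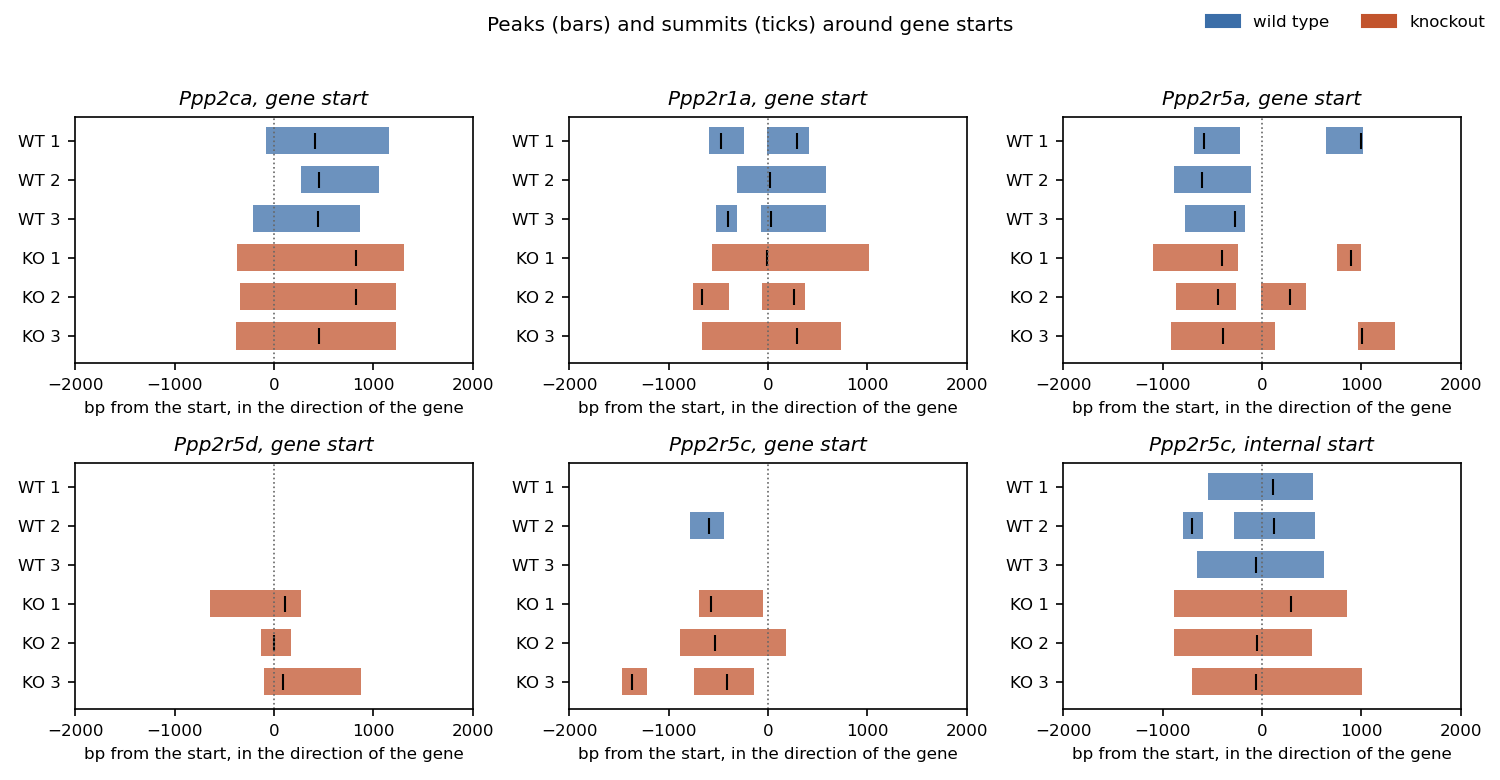
Peaks (bars) and their summits (ticks) within 2000 bp of gene starts, in bp along the direction of the gene, with 1 row per library. The knockout peaks of Ppp2ca begin 337 to 380 bp before the start, the start of Ppp2r5d has peaks in the 3 knockout libraries alone, and the internal start of Ppp2r5c has a peak in all 6.

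The 5 genes most like Ppp2ca in gene-end bases over the 6 libraries, by mean absolute difference, were Mat2a (58 bp), Supt6 (65.7 bp), Zfp91 (66.3 bp), Sdf2 (67 bp) and Dtl (70.3 bp). Supt6 and Sdf2 overlap at their ends, so the same peaks serve both.

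Ppp2cb encodes the beta catalytic subunit, a nearly identical enzyme from a separate gene (chr8:33599621-33619804). Its low-coordinate end was covered over 283, 262 and 292 bp in wild type and 364, 0 and 995 bp in knockout, so knockout replicate 2 had no peak and the groups overlapped (exact permutation p = 0.7, adjusted p = 1). The wild-type values lay close together and the knockout values spread from none to the widest. Summit percentiles within the list, where 0 is the strongest peak, were 27.2, 39.8 and 11.8 in wild type and 38.6 and 11.6 in knockout replicates 1 and 3. Ppp2cb was the only member marked in all 3 wild-type libraries and not in all 3 knockout libraries.

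Outside the ends of Ppp2cb, 1 region of the flank was called in all 6 libraries, 28.9 to 30.6 kb from the low-coordinate end and inside the neighbouring gene Ubxn8. It was covered over 602, 1085 and 613 bp in wild type and 1247, 798 and 1382 bp in knockout, which overlapped. A region 5.9 to 5.0 kb beyond the low-coordinate end was covered over 0, 200 and 0 bp in wild type and 315, 409 and 885 bp in knockout. Every knockout library lay above at this second region, and its peaks were of middle to low rank, at percentiles of 59.9, 34.1 and 35.4 in the knockout lists.

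Ppp2r1a encodes the alpha scaffold, the main platform of the enzyme (chr17:20945454-20965905, plus strand). Its start was covered over 781, 896 and 872 bp in wild type and 1560, 800 and 1402 bp in knockout. Knockout replicate 2 fell within the wild-type range, so the groups overlapped (850 ± 60.7 against 1254 ± 401 bp, exact permutation p = 0.3, adjusted p = 0.892). Percentiles of 4.88, 5.89 and 14.8 in wild type and 3.44, 11.4 and 10.3 in knockout interleaved. The start of the main scaffold gene was thus at a percentile of 14.8 or better in every list.

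Ppp2r1b encodes the beta scaffold (chr9:50856896-50899325, plus strand) and was the least marked member. Gene-end bases were 0, 0 and 722 in wild type and 689, 0 and 0 in knockout (exact permutation p = 1). The wild-type replicate 3 peak ranked at percentile 98.3, among the weakest of its list, and the knockout replicate 1 peak at 22.8, with all 250 bases of the window before the start covered in that library alone. No region of its span was called in all 6 libraries, and 11 of its 14 regions were seen in 1 library only.

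Ppp2r5a encodes B56 alpha, which is known to act on MYC (chr1:191351981-191397041, minus strand). Gene-end bases were 1367, 775 and 609 in wild type and 1003, 1050 and 1080 in knockout, which overlapped (exact permutation p = 0.7). Wild-type replicate 1 was the highest of all and was the only library with a peak at the far end of the gene. In the region over the start itself the groups separated, with 463, 775 and 609 bp against 853, 1050 and 1046 bp. Of the 9 member regions called in all 6 libraries, 4 had every knockout library above, those at the starts of Ppp2ca and Ppp2r5a, at the internal start of Ppp2r5c and at the high-coordinate end of Ppp2r5e, beside 59.3% of such regions in the genome.

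Ppp2r5b encodes B56 beta (chr19:6227765-6236264, minus strand), the shortest of the 9 genes. Its start was covered over 0, 256 and 604 bp in wild type and 581, 663 and 678 bp in knockout, so wild-type replicate 3 reached into the knockout range (exact permutation p = 0.2). Percentiles of the called peaks were 9.27 and 13.9 in wild-type replicates 2 and 3 and 8.46, 11.4 and 20.7 in knockout. A stronger region 6.4 to 5.0 kb before the start, at an end of the autophagy gene Atg2a, was called in all 6 libraries over 798, 1267 and 699 bp in wild type and 1220, 1207 and 1228 bp in knockout. Its percentiles were 5.36, 6.72 and 7.48 against 1.68, 5.26 and 0.999, so it had a better percentile in every knockout list. By plain rank, knockout replicate 2 (1791.5), with a longer list, placed it below wild-type replicates 1 (1184) and 3 (1641).

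Ppp2r5c encodes B56 gamma, which is known to act on p53 (chr12:110447144-110583075, plus strand). It had the most called mark of the 9 genes, with 3094, 2272 and 2687 bp over its span in wild type and 8315, 6168 and 7229 bp in knockout. The means were 2684 ± 411 and 7237 ± 1074 bp, a ratio of 2.70 (exact permutation p = 0.1, adjusted p = 0.237). Every knockout library lay above every wild-type library, as for 6 of the 9 members (of which Ppp2ca, Ppp2r1b, Ppp2r5b and Ppp2r5e turned negative per 10 Mb called) and 41.8% of all genes, and for 0 members every knockout library lay below (0.370%). Per 10 Mb called, the span difference of Ppp2r5c was 423 bp with overlap between the groups (exact permutation p = 0.9).

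The strongest Ppp2r5c region was not at its first start. A region 37.8 to 39.7 kb into the gene, over the annotated internal start whose window is printed above, was covered over 1050, 1019 and 1284 bp in wild type and 1744, 1389 and 1705 bp in knockout. Its percentiles were 2.38, 1.48 and 5.03 against 0.414, 0.362 and 0.323, and its summits held 14, 15 and 13 against 49, 35 and 60 fragments. All 250 bases of the printed window were covered in all 6 libraries; of all promoter windows, 5.44% were touched by a peak in all 6 libraries and 5.62% in all 3 wild-type libraries. The region also lay near an end of the gene Gm19605.

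At the first start of Ppp2r5c the covered bases were 0, 339 and 0 in wild type and 645, 1062 and 605 in knockout (exact permutation p = 0.1, adjusted p = 0.390). The called peaks were strong in their lists, at percentile 3.57 in wild-type replicate 2 and at 3.46, 3.73 and 5.70 in knockout. Wild-type replicate 2 thus ranked its peak as highly as the knockout libraries did, while replicates 1 and 3 had none. Another 3 regions inside the gene, at 10.9 to 12.0, 51.3 to 52.6 and 56.1 to 56.8 kb from the start, were called in all 3 knockout libraries and in wild-type replicate 1 alone. Their wild-type replicate 1 values were 409, 450 and 344 bp, and the knockout values ranged over 376 to 851, 502 to 923 and 415 to 478 bp. Without wild-type replicate 1 these 3 regions would count as called in knockout alone. Without wild-type replicate 2 so would the region where the gene begins.

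**Figure D4:**
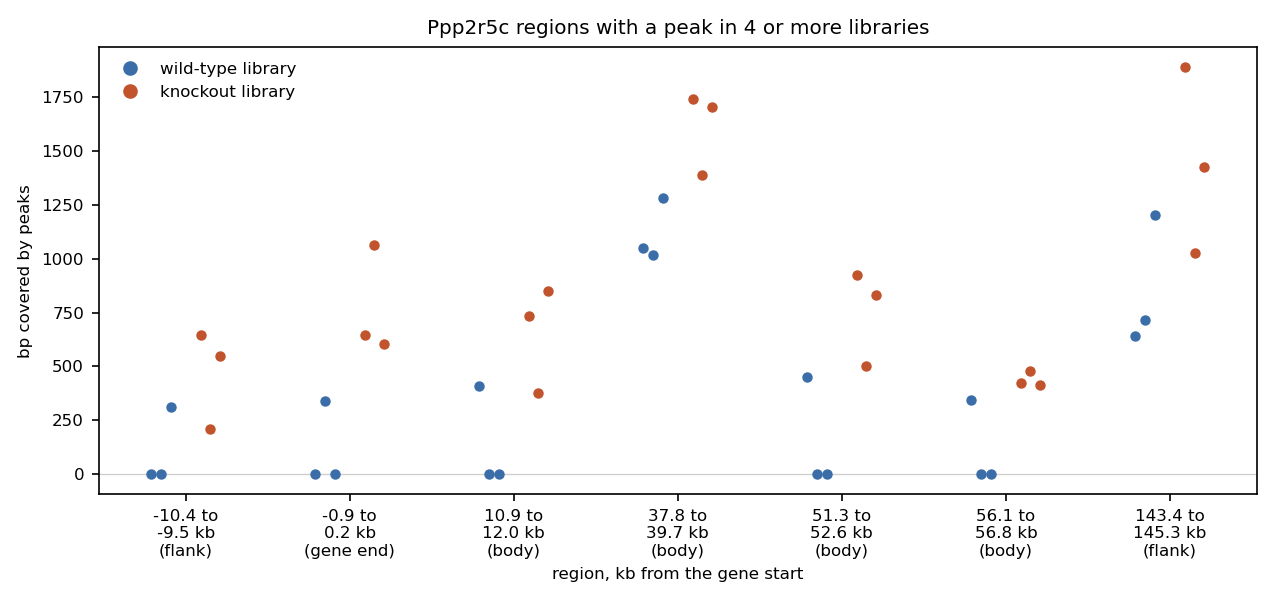
Bases covered by peaks (bp) in the 7 Ppp2r5c regions called in at least 4 libraries, with 1 point per library and the position in kb from the gene start. The internal start (37.8 to 39.7 kb) and the region 143.4 to 145.3 kb away are called in all 6 libraries, and the other 5 in 1 wild-type library each.

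Beyond the far end of Ppp2r5c, the region 143.4 to 145.3 kb from its start, at the non-coding gene B930059L03Rik, was called in all 6 libraries. It covered 641, 714 and 1203 bp in wild type and 1889, 1026 and 1427 bp in knockout, which overlapped. Its percentiles did not overlap, at 8.28, 19.9 and 27.8 in wild type against 0.559, 2.12 and 0.806 in knockout.

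Ppp2r5d encodes B56 delta, known for its part in mitotic entry and for mutations in a neurodevelopmental disorder (chr17:46682991-46705026, minus strand). It was the only member whose ends were marked in every knockout list and in none of the wild-type lists, beside 4.10% of all genes, and 0 members showed the reverse (0.00914%). The call was lost at a −log10 q-value of at least 5, where none of its 3 knockout peaks at the start passed and Ppp2r5a and Ppp2r5c were the members marked in knockout alone. The covered bases were 0, 0 and 0 in wild type and 915, 299 and 971 in knockout (exact permutation p = 0.1, adjusted p = 0.390). The 3 knockout peaks lay over the start, with summits 108 bp after, 3 bp before and 96 bp after it, also near the non-coding gene Gm52314. They had summit folds of 4.50, 6.10 and 4.72, rested on 8, 9 and 9 fragments, and each passed a q-value of 0.05. Their ranks were moderate, at percentiles of 21.2, 7.34 and 27.7. The 250-base window with its 4 copies of CCAAT was covered over 250, 130 and 96 bases in knockout and 0 in each wild-type library, and 3.73% of all promoter windows were overlapped in the same all-or-none way. A peak of 8 or 9 fragments is shallow, and its absence from a list does not show that the mark was absent.

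Over its whole span Ppp2r5d had the highest ratio of the 9 genes, 739 ± 669 bp in wild type and 3659 ± 849 bp in knockout (4.95, exact permutation p = 0.1, adjusted p = 0.237). Per 10 Mb called the span difference was still positive, 1084 bp, with every knockout library above. Much of this lay at neighbouring genes. A region at the ends of Rrp36 and Klhdc3 was called in all 6 libraries over 219, 747 and 289 bp in wild type and 738, 956 and 560 bp in knockout. A region inside Mea1 near an end of Klhdc3 covered 200, 280 and 0 bp against 1225, 1012 and 1144 bp, and a region at an end of Pex6 covered 0, 481 and 0 bp against 1157, 420 and 1306 bp. The Mea1 region separated the genotypes and the Pex6 region did not.

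Ppp2r5e encodes B56 epsilon (chr12:75449463-75596237), the longest of the 9 genes. Gene-end bases were 1226, 721 and 420 in wild type and 1957, 1634 and 1610 in knockout (789 ± 407 against 1734 ± 194 bp, exact permutation p = 0.1, adjusted p = 0.390). The high-coordinate end was called in all 6 libraries over 1026, 279 and 420 bp against 1142, 1234 and 1217 bp, and the low-coordinate end over 200, 442 and 0 bp against 815, 400 and 393 bp. The groups separated at the high end and overlapped at the low end, and per 10 Mb called the gene-end difference of Ppp2r5e was -69.2 bp. Summit folds at the high end were 3.98, 3.37 and 2.98 in wild type and 6.65, 4.37 and 6.51 in knockout.

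Of the 4 members marked in all 6 libraries, Ppp2r5e had the widest gap in percentile between the genotypes. The percentiles of its best gene-end peak were 25.4, 41.4 and 76.3 in wild type and 3.19, 19.1 and 5.30 in knockout (exact permutation p = 0.1, adjusted p = 0.316). Every knockout list placed it at a better percentile, which held for 1 of the 4 members and for 30.8% of the 3712 genes marked in all 6 libraries. The reverse held for 0 members and 0.781% of these genes. A percentile depends on the length of the list. By plain rank, knockout replicate 2 (6509) placed the Ppp2r5e peak below wild-type replicate 1 (5608.5). None of its wild-type gene-end peaks passed a q-value of 0.05 and all 3 knockout libraries had one that did, so at that limit Ppp2r5d and Ppp2r5e were the 2 members marked in knockout alone, beside 12.4% of all genes. The percentiles of Ppp2ca, 0.983, 8.24 and 2.32 against 0.694, 1.13 and 0.676, overlapped by 1 wild-type library, and those of Ppp2r5a interleaved (6.25, 2.46 and 11.9 against 1.01, 4.79 and 13.0).

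**Figure D5:**
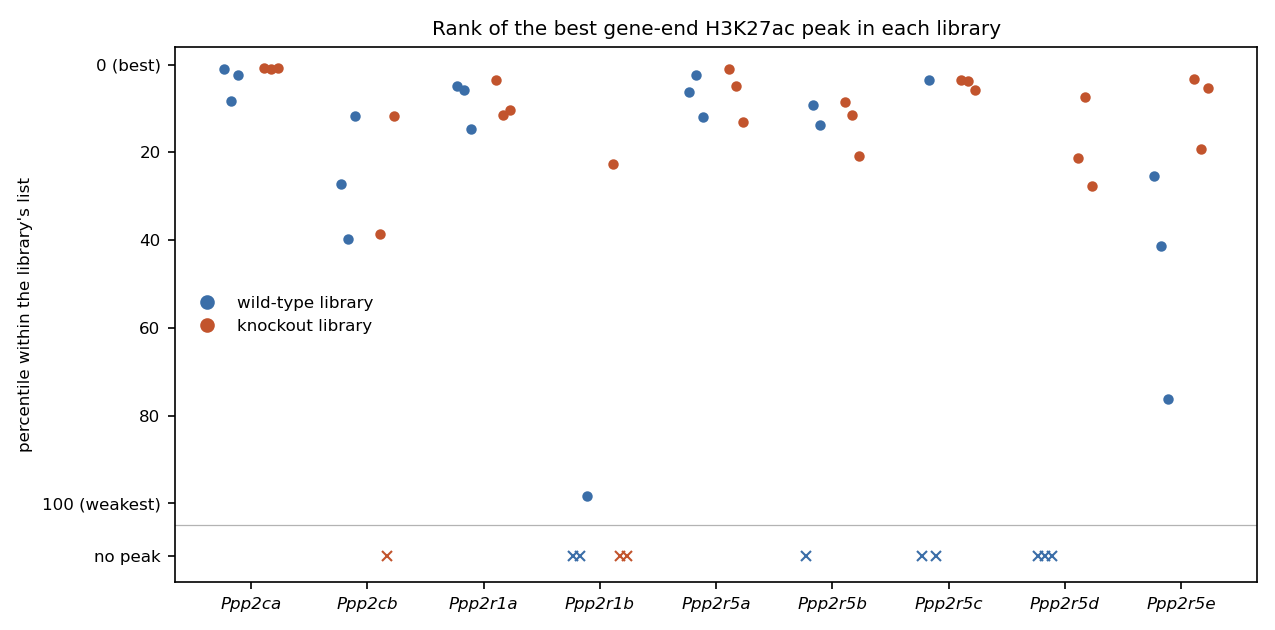
Percentile of the best gene-end peak within its own library's list (0 is the strongest), with 1 point per library and a cross where the library had no gene-end peak. Ppp2ca lies under 9 in all 6 libraries, Ppp2r5d has crosses for all 3 wild-type libraries, and Ppp2r5e has its 3 knockout points at better percentiles than its 3 wild-type points.

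The other genes of the PP2A system were read in the same way. Of 22 genes for B55, PR72 and striatin subunits, methylation enzymes, chaperones and inhibitors, 12.7 ± 1.53 were marked at a gene end in wild type and 16.3 ± 0.577 in knockout (SD, n = 3 each). Of all genes, 27.5 and 42.0% were marked. Gene-end bases were above in every knockout library for 11 of the 22 (25.6% of all genes) and below for 0 (0.0183%). Marked in all 6 libraries were 9 (17.0% of all genes). Most of these 9 lay above in every knockout library, beside 66.5% of all genes marked in all 6. Strn, the gene of the scaffold protein striatin, was the 1 gene of the 22 marked in every knockout list and no wild-type list (4.10% of all genes), with 784, 752 and 1070 bp in knockout. The median difference over the 22 genes was 486 bp, with 5 of them marked in no library. It was 0 over all genes, of which 10799 were marked in none. Of 12 partners or substrates of PP2A-B56, from mitosis, Wnt, AKT, MYC and p53 signalling, 7 ± 1 were marked in wild type and 9.67 ± 0.577 in knockout, and 5 had every knockout library above. Of 9 catalytic subunits of related phosphatases, 6.67 ± 0.577 were marked in wild type and 7.67 ± 1.15 in knockout, and 3 had every knockout library above. These last lists also stood beside 25.6% of all genes with every knockout library above. Of the partners 4 and of the related subunits 6 were marked in all 6 libraries (17.0% of all genes). Among all genes marked in all 6, 66.5% had every knockout library above.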

How the data were processed

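H3K27ac CUT&RUN peaks of 6 libraries, 3 wild type and 3 knockout, were used as deposited, in 1 narrowPeak list per library. The submitters' processing notes name GRCm38/mm10 and the tools BWA, MACS2, Trimmomatic, HOMER, ChIPseeker and deepTools; versions, parameters and any control library were not given in the sources used here. In the authors' lists the ratio is a summit's fold over local background. Each peak's deposited −log10 p-value ranked it and its deposited −log10 q-value filtered it, while the deposited score was not used. Peak names carry the library, so peaks were called per library and not on pooled samples. The lowest −log10 p-value was 2.01 in all 6 lists. Depth is unknown, and these fold, p- and q-values depend on it.

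Gene ends and spans came from a RefSeq table of GRCm38.p6, and strand from its promoter table. Covered bases per gene, percentiles within a list and merged regions (overlap of at least 1 bp) were computed with Python 3.11.15, numpy 2.4.6, pandas 2.3.3 and scipy 1.17.1, and plotted with matplotlib 3.10.9. Each gene was tested by an exact permutation test, two-sided, over 20 assignments, with Benjamini-Hochberg adjustment over 21883 genes (3712 for percentiles and summits). Summit fragments and background were solved from the fold, taken as (fragments + 1) over (background + 1), and the Poisson p-value, at a tolerance of 0.005. The procedure was tested on simulated data. All 9 members were named. Of the other lists, only genes marked in all libraries of 1 genotype and none of the other are named for their values, beside markers marked in all or no libraries (1 is not reported here), the partners given as examples and the 5 genes most like Ppp2ca. The members and lists were chosen with earlier results of these data known. Alternatives were stricter q-values, equal numbers of peaks, other windows, flanks and overlap rules, start only, scaling by bases called, a replicate block and each library left out in turn. No exon or intron positions were used.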

Additional observations from a re-analysis of the deposited data

How the results depend on the processing

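Stricter and rescaled settings changed how many genes had every knockout library above (5607 at gene ends, 9137 over spans), had a better percentile in every knockout list (1144, called by rank below) or were marked in knockout alone (898). With −log10 q-values of at least 5 these became 1659, 2659, 53 and 1364, the genes below 1 and 6 (from 4 and 81), Ppp2r5a and Ppp2r5c replaced Ppp2r5d as the members marked in knockout alone, and marked members averaged 0.333 in wild type and 5 in knockout (from 6.33 and 8). With q-values of at most 0.05 they were 629 by rank and 2718 in knockout alone, with 1 and 3 genes below and 4.33 members in wild type. No gene was marked in wild type alone (0) at either limit. Equal numbers of peaks gave 586 by rank, 12 and 166 below, 6 in wild type alone and a Ppp2r5a difference of -24 bp. Counting starts only, for the 7 members with a strand, gave 4.33 and 6.33 members and 1 gene in wild type alone (from 2), a window of 2000 bp gave 4 such genes, and flanks of 20000 bp gave 122 below. Per 10 Mb called, 1666 and 2239 genes lay above and 705 and 932 below, and differences turned negative at gene ends for Ppp2ca (-498 bp), Ppp2cb (-132), Ppp2r1a (-419), Ppp2r5a (-604), Ppp2r5b (-14.1) and Ppp2r5e (-69.2), and over spans for Ppp2ca (-517), Ppp2cb (-103), Ppp2r1a (-487), Ppp2r1b (-26.3), Ppp2r5a (-559), Ppp2r5b (-447) and Ppp2r5e (-341); knockout libraries had more bases called, so this scaling lowers them by construction. Summit fragments over genome background, added after the data had been seen, put 3485 genes above. The Ppp2r1b gene-end difference (-11 bp) became 230 bp with q-values of at most 0.05 and 194 bp with a 500 bp window. Leaving out 1 library at a time gave 1262 to 1962 genes by rank, 1036 to 1563 in knockout alone, 4 to 13 in wild type alone, 9 to 30 below at gene ends and 90 to 249 over spans, and gene-end differences of -97 to 401 bp for Ppp2cb, -241 to 230 bp for Ppp2r1b and -26.7 to 352 bp for Ppp2r5a. Without wild-type replicate 2, Ppp2r5c joined Ppp2r5d as marked in knockout alone. Same-numbered libraries did not deviate together (correlations 0.0129, -0.00114 and -0.00305 at gene ends), and the libraries were treated as unpaired. Differently numbered libraries had correlations as near 0, so these values cannot decide whether same-numbered libraries were handled together. With a replicate block 6567 genes at gene ends, 10232 over spans and 1684 by rank lay above in every pair, and no block p can fall below 0.25. Other causes were not tested.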
